A study of Homo sapiens with 27 samples.

Results

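AZD8931 was compared with DMSO in UMSCC8 cells, a human line derived from a head and neck squamous cell carcinoma (HNSCC), with 3 libraries for each treatment. These 6 libraries were taken by their labels from the 27 of the kinome shRNA screen. The cells carried a pooled lentiviral kinome shRNA library and had been selected with puromycin. They were then divided among plates and treated for 72 hours with DMSO as the vehicle or with AZD8931, followed by 72 hours in drug-free medium, and genomic DNA was isolated at 144 hours. The dose of AZD8931 is given as 30 nM in the methods and in one field of the labels, and as 1.0 μM in another field. For comparison, libraries of the same screen with gefitinib (300 nM, or 1.0 μM in the other field) in UMSCC8 and UMSCC25 are also used below. So are DMSO and AZD8931 libraries of UMSCC25 and UMSCC1, other HNSCC lines treated on the same schedule. No library of untransduced cells, of cells before treatment or of the plasmid pool was used here. The plates of a comparison with DMSO were divided from transduced cells of 1 line, so that the p-values measure only the spread between plates, which may be technical.

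AZD8931 inhibits signaling by EGFR, ERBB2 and ERBB3, receptor tyrosine kinases of the ERBB family. These receptors pair on binding of EGF-like ligands and activate the RAS-MAPK and PI3K-AKT pathways, and EGFR is commonly overexpressed in HNSCC. In a pooled screen each integrated shRNA is a heritable tag of the cells that carry it. An shRNA that is scarcer after treatment with an inhibitor marks cells that grew or survived less well with the drug than with the vehicle, and the kinase it silences is then a candidate for synthetic lethality (SL). The comparison asks which kinase shRNAs were depleted or enriched when the ERBB receptors of UMSCC8 were inhibited.

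The table listed 3177 shRNAs by clone identifier, and 3111 had at least 10 counts summed over the 6 libraries and were tested. Of the other 66, 36 had 0 counts in all 6 libraries and 30 had fewer than 10. The identifiers are not paired with gene names in the files. The paper pairs 6 of them with TGFBR1 or TGFBR2, and the sequences of the shRNAs were not analysed here. Of the remaining shRNAs, 4 are given by identifier and the others as counts.

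The 6 libraries held between 396006 and 506971 counts, so that depth differed little between the treatments. The median tested shRNA had 63 to 85 counts in a library. With 0 counts an shRNA may still have been present at up to 3 counts, or 5.92 to 7.58 CPM (counts relative to the library total), a limit that takes in only counting error. The most abundant shRNA took 4.97%, 4.83% and 6.22% of the counts with DMSO and 6.61%, 6.71% and 6.89% with AZD8931. Each AZD8931 share was above each DMSO share, but the difference did not pass the test (log2 fold change 0.38, with an adjusted p of 0.635 from the quasi-likelihood test of edgeR).

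DMSO replicate 1 stood apart from the other 5 libraries. It had 328 shRNAs at 0 counts, against 81 to 91 in each of the others, although its total of 427180 counts was neither the lowest nor the highest. Its Pearson correlations with the other libraries, over log2(CPM + 10) of the 3111 shRNAs, were 0.75 to 0.78, while the 10 pairs without it lay between 0.82 and 0.93. The median correlation of a library with the other 5 was 0.76 for DMSO replicate 1, 0.87 and 0.88 for DMSO replicates 2 and 3, and 0.88 to 0.90 for the AZD8931 libraries. All points share the plasmid pool and the line, and the correlations are descriptions.

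**Figure D1:**
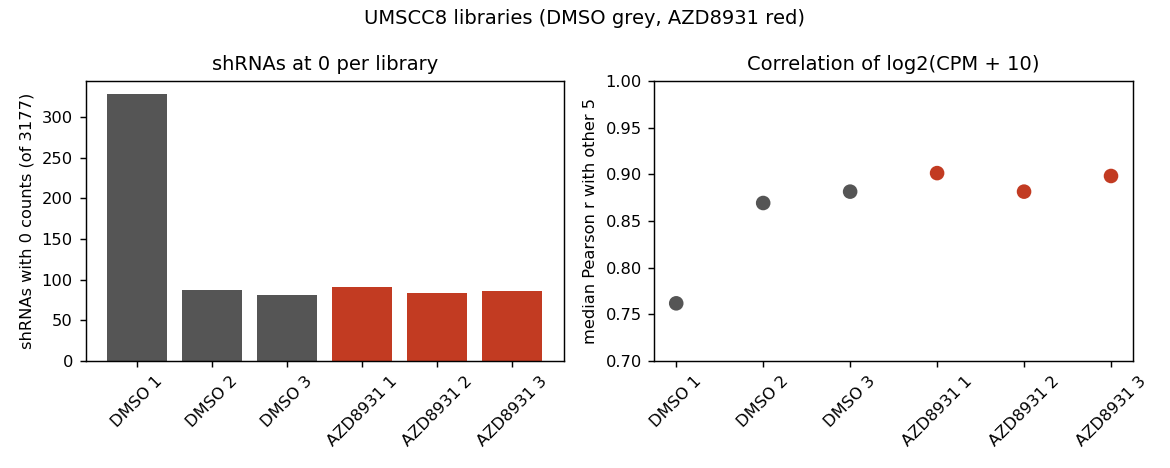
The left panel plots the number of shRNAs with 0 counts, of 3177, in each of the 6 UMSCC8 libraries, and the right panel plots the median Pearson correlation of each library with the other 5 on the log2(CPM + 10) scale, on an axis that starts at 0.7. DMSO replicate 1 has 328 shRNAs at 0 and a median correlation of 0.76, and the other 5 libraries have 81 to 91 at 0 and correlations of 0.87 to 0.90.

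The zeros of this library were not limited to scarce shRNAs. In all, 206 shRNAs were at 0 in DMSO replicate 1 and present in each of the other 5 libraries, and 83 of them had at least 10 counts in each of those 5. Their mean count in the other 5 libraries had a median of 17.3 and reached 72.6. In contrast, only 4 to 10 shRNAs were at 0 in a single one of the other libraries. DMSO replicate 1 also held 11 shRNAs with at least 30 counts and a CPM at least 4 times that of every other library, where the other 5 libraries held 0 or 1 each. The comparisons with DMSO below are therefore given with all 6 libraries and, for the values that results turn on, also without this library.

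The biological coefficient of variation between libraries of a group was 44.5% over the 6 libraries and 32.6% without DMSO replicate 1. Leaving out any other single library gave 44.4% to 49.7%. With all 6 libraries, the log2 fold changes (AZD8931 against DMSO) had a median of 0.01 and an SD of 0.73, and 1522 shRNAs were below 0 and 1589 above. The middle 90% of the shRNAs lay between -1.11 and 1.09, or between -0.997 and 0.96 without DMSO replicate 1. Most shRNAs thus differed less than 2-fold between the treatments.

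No shRNA passed an adjusted p under 0.05 (0%) with all 6 libraries, by edgeR's quasi-likelihood test with Benjamini-Hochberg adjustment, and none passed without DMSO replicate 1 (0%). The lowest adjusted p was 0.635 with the 6 libraries, shared by 109 shRNAs, and 0.306 without DMSO replicate 1, shared by 2 shRNAs. The edgeR exact test and limma-voom with sample quality weights called 0 of the 3111 with the 6 libraries. Their lowest adjusted p-values were 0.0725 and 0.167. DESeq2 called 6, of which 5 were lower and 1 higher with AZD8931, with adjusted p-values no lower than 0.0413 and no adjusted p given for 1568 of the shRNAs. DESeq2 called 0 when the gefitinib libraries of the line shared the fit, and 0 without DMSO replicate 1. Without DMSO replicate 1 the edgeR exact test called 4 shRNAs, all lower with AZD8931, and limma-voom called 0.

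The unadjusted p was under 0.05 for 128 shRNAs lower with AZD8931 (4.11%) and for 95 higher (3.05%). Without DMSO replicate 1 there were 143 lower (4.6%) and 144 higher (4.63%). Of the 128 lower with all 6 libraries, 81 were also among the 143, and of the 95 higher, 71 were also among the 144. These are 63.3% and 74.7% of the 6-library lists, and 56.6% and 49.3% of those without the library. Without AZD8931 replicate 2 there were 74 lower and 57 higher, and without AZD8931 replicate 3, 58 lower and 50 higher. Leaving out AZD8931 replicate 1 gave 106 lower and 91 higher. Leaving out DMSO replicate 2 gave 112 and 92, and leaving out DMSO replicate 3 gave 140 and 143. With evenly spread p-values, 155.55 shRNAs would have an unadjusted p under 0.05, both directions together. The fit of all 6 libraries had 223, and that without DMSO replicate 1 had 287. The count fell below 155.55 without AZD8931 replicate 2 (131) and without AZD8931 replicate 3 (108). It stayed above when AZD8931 replicate 1 (197), DMSO replicate 2 (204) or DMSO replicate 3 (283) was left out.

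The 3 AZD8931 libraries all lay below the 3 DMSO libraries for 256 shRNAs (8.23%), and all above for 239 (7.68%). Without DMSO replicate 1 these counts were 456 and 375 of the same 3111 shRNAs, since 2 control libraries are easier to clear than 3. If the 6 libraries fell in arbitrary order, groups without overlap would make up a share of 0.1 of the shRNAs, both directions together. The share for 3 against 2 libraries was not computed, and these counts are descriptions. The strictest form of this pattern is an shRNA lost from a whole group. Only 3 shRNAs were at 0 in all AZD8931 libraries and present in all DMSO libraries. The first had 18, 1 and 6 counts with DMSO. Set against the 3 counts that 0 allows over the AZD8931 group, this is 8.43-fold lower with AZD8931. The second had 1, 12 and 2 counts (5.06-fold lower by the same measure), and the third had 18, 6 and 8 (10.8-fold lower). Most of the DMSO counts of the first and of the third came from DMSO replicate 1. Without that library the folds of the 3 were 3.44, 6.89 and 6.89. In the opposite direction, 1 shRNA was at 0 with DMSO and had 5, 8 and 24 counts with AZD8931. This is 12.2-fold higher, or 8.36-fold without DMSO replicate 1. These folds take the counts of the other group as exact and leave out the spread between plates. They are therefore not lower bounds of a change, and the shRNAs were picked for their zeros. The adjusted p-values of these 4 were 0.635 or 0.684 by edgeR's quasi-likelihood test.

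DMSO replicate 1 carried many of the large fold changes. Among the 197 shRNAs that were at least 2-fold higher with AZD8931, it was the lowest DMSO library for 163 (82.7%), against 44.7% of all tested shRNAs, and it was at 0 for 86. Among the 198 at least 2-fold lower, it was the highest DMSO library for 132 (66.7%), against 35.7% of all. When it was left out, 89 of the 197 (45.2%) and 103 of the 198 (52.0%) were still at least 2-fold changed in the same direction. Leaving out any other library kept 70.1% to 93.4% of the higher and 78.3% to 88.4% of the lower shRNAs. The sign of the log2 fold change differed with and without this library for 634 shRNAs (20.4%), and none of these was among the 223 at an unadjusted p under 0.05.

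**Figure D2:**
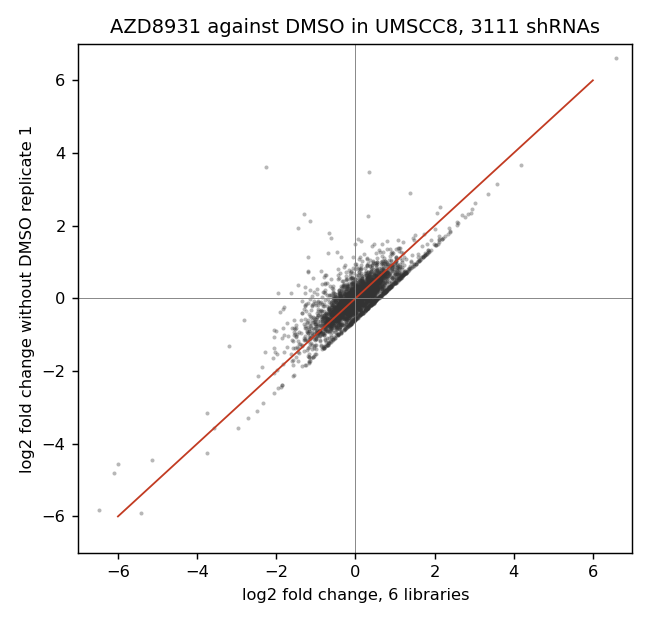
Each point is 1 of 3111 shRNAs, with its log2 fold change (AZD8931 against DMSO in UMSCC8) from the 6 libraries on the x axis and from the 5 libraries without DMSO replicate 1 on the y axis, and the red line marks equal values. The points form a dense lower edge parallel to the line, and others lie well above it; the median absolute difference is 0.23 and 67 shRNAs differ by more than 1 on the log2 scale.

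The intervals of the fold changes show which changes the plates could exclude. Over the 6 libraries, the 95% interval excluded a 4-fold decrease with AZD8931 for 2607 of the 3111 shRNAs (83.8%) and an 8-fold decrease for 2953 (94.9%). A 2-fold decrease was excluded for 1478 (47.5%) and a 2-fold increase for 1542 (49.6%). Without DMSO replicate 1, a 4-fold decrease was excluded for 2795 (89.8%), an 8-fold decrease for 3013 (96.8%), a 2-fold decrease for 1748 (56.2%) and a 2-fold increase for 1789 (57.5%).

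This precision went with abundance. Of the 178 shRNAs with a mean under 10 counts per library, the interval excluded a 4-fold decrease for 21.3%, with a median standard error of 1.40 for the log2 fold change. Of the 1226 with 30 to 100 counts it did so for 90.0% (median standard error 0.50), and of the 216 with 300 or more counts for all, at 100% (median standard error 0.24). The share at an unadjusted p under 0.05, in either direction, was 4.49% below 10 counts, 3.49% from 10 to 30, 5.71% from 30 to 100, 9.98% from 100 to 300 and 12.04% at 300 or more. Without DMSO replicate 1 these shares were 6.74%, 6.97%, 8.32%, 11.3% and 11.1%, a narrower range. From 10 to 30 counts, the share whose interval excluded a 4-fold decrease went from 49.9% with all 6 libraries to 74.5% without that library, and below 10 counts from 21.3% to 28.7%. The log2 fold changes themselves were wider among scarce shRNAs, with an SD of 1.76 below 10 counts and of 0.37 at 300 or more (1.70 and 0.35 without DMSO replicate 1).

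The 4 shRNAs given by identifier had the smallest p-values in each direction among those whose groups did not overlap, so that the order of their libraries was fixed by the choice and is a description. The first of the lower pair, TRCN0000001794, had 415, 569 and 387 CPM in DMSO replicates 1 to 3 and 159, 195 and 154 CPM in AZD8931 replicates 1 to 3. The DMSO libraries averaged 457 ± 97.9 CPM and the AZD8931 libraries 170 ± 22.3 (SD, n = 3 plates). AZD8931 differed from DMSO by -1.43 on the log2 scale (standard error 0.30, 95% interval -2.10 to -0.76), with an adjusted p of 0.635 by edgeR's quasi-likelihood test, and -1.49 (adjusted p = 0.306) without DMSO replicate 1. Its log2 fold change was -1.54 to -1.24 when each library was left out in turn. The choice by smallest p without overlap favors such a narrow range, which is a description too.

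TRCN0000001495 had 690, 810 and 875 CPM with DMSO and 425, 324 and 318 CPM with AZD8931. The lowest DMSO library was thus well above the highest AZD8931 library. Its log2 fold change was -1.15 (standard error 0.25, 95% interval -1.71 to -0.60) with an adjusted p of 0.635 in that edgeR test, and -1.24 (adjusted p = 0.306) without DMSO replicate 1. TRCN0000001794 and TRCN0000001495 were among the 6 that DESeq2 called, both with an adjusted p of 0.0413, and among the 4 that the exact test called without DMSO replicate 1 (adjusted p = 0.0437). The adjusted p over all alternatives ran from 0.0413 to 0.997 for both.

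Of the higher pair, TRCN0000002318 had 144, 233 and 234 CPM with DMSO and 443, 536 and 508 CPM with AZD8931. DMSO replicate 1 was the lowest of its control libraries. The log2 fold change was 1.28 (standard error 0.30, 95% interval 0.61 to 1.94, adjusted p = 0.635, same edgeR test) and 1.08 (adjusted p = 0.352) without that library. DESeq2 called it with an adjusted p just inside the threshold. TRCN0000006028 had 198, 338 and 201 CPM with DMSO and 600, 503 and 572 CPM with AZD8931, and its log2 fold change was 1.18 (95% interval 0.52 to 1.85, adjusted p = 0.635, same edgeR test), or 1.05 (adjusted p = 0.352) without DMSO replicate 1. No tool called it at 0.05.

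The gefitinib plates of the same line were not used in choosing these 4 shRNAs, though the DMSO plates they are set against are the same. Gefitinib inhibits EGFR, and its dose is 300 nM where that of AZD8931 is 30 nM, and 1.0 μM in the label field that gives 1.0 μM for AZD8931. TRCN0000001794 had 66, 90 and 26 counts in gefitinib replicates 1 to 3, where replicate 3 had a total of only 178406 counts. Scaled to the 9 libraries of the line, these were 166 ± 12.1 CPM (SD, n = 3 plates), close to the level with AZD8931. Compared directly, without any DMSO library, AZD8931 and gefitinib differed for this shRNA by 0.00 on the log2 scale (95% interval -0.82 to 0.82). TRCN0000001495 had 403 ± 115 CPM with gefitinib, TRCN0000002318 had 366 ± 160 and TRCN0000006028 had 429 ± 44.8. For TRCN0000002318, gefitinib replicate 3 was at the level of the DMSO libraries and the other gefitinib libraries were above them. The log2 differences of AZD8931 from gefitinib were -0.18 (95% interval -0.85 to 0.48), 0.39 (-0.27 to 1.05) and 0.36 (-0.22 to 0.95) in the same order. Over all 3095 shRNAs tested between the inhibitors, 0 passed an adjusted p under 0.05 by edgeR's quasi-likelihood test and 240 had an unadjusted p under 0.05. DESeq2 and limma-voom also called 0, and the edgeR test called 2 without gefitinib replicate 2.

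**Figure D3:**
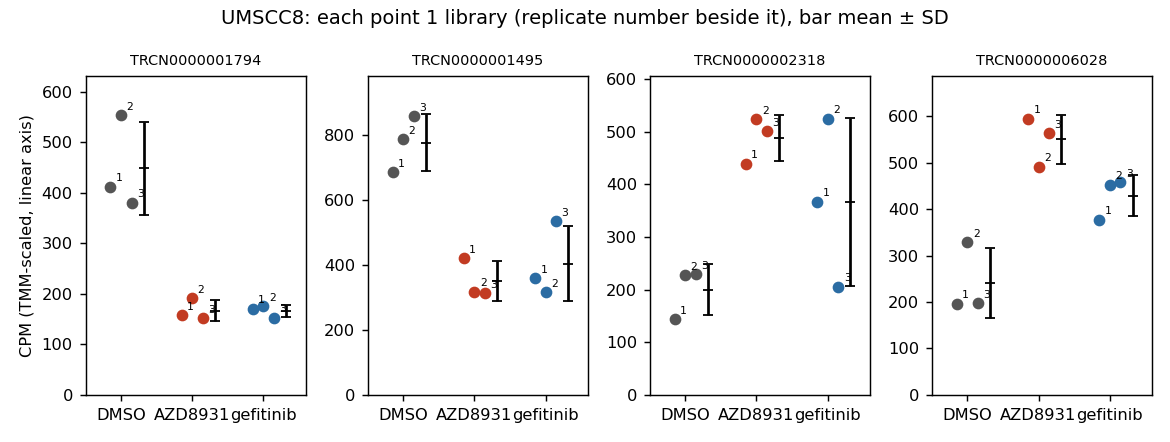
CPM of the 4 shRNAs named by identifier in the DMSO (grey), AZD8931 (red) and gefitinib (blue) libraries of UMSCC8, scaled over the 9 libraries of the line, with the replicate number beside each point and the mean ± SD of the 3 plates as a bar, on linear axes that start at 0. All 3 AZD8931 points are below the DMSO points for TRCN0000001794 and TRCN0000001495 and above them for TRCN0000002318 and TRCN0000006028, by the choice of these shRNAs.

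AZD8931 was also given to UMSCC25 and UMSCC1 cells, HNSCC lines with their own DMSO plates, so that these libraries share no control with UMSCC8. TRCN0000001495 had 634, 640 and 651 counts with DMSO and 232, 234 and 238 counts with AZD8931 in UMSCC25, or 1353 ± 20.02 and 546 ± 121 CPM (SD, n = 3 plates). The log2 fold change there was -1.31 (standard error 0.21), with an adjusted p of 0.00436 from the quasi-likelihood test of edgeR, beside -1.15 in UMSCC8. TRCN0000002318 had 177 ± 45.1 CPM with DMSO and 492 ± 67.6 with AZD8931 in UMSCC25, or 1.47 on the log2 scale (standard error 0.30) with an adjusted p of 0.0330 in that test, beside 1.28 in UMSCC8. For both, the UMSCC25 groups did not overlap. TRCN0000001794 and TRCN0000006028 had log2 fold changes of 0.17 (standard error 0.41) and -0.05 (standard error 0.45) in UMSCC25, with overlapping groups.

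The UMSCC25 calls depended on the libraries fitted. In the fit of the 6 UMSCC25 libraries, 18 of 3075 shRNAs passed an adjusted p under 0.05 (0.585%). With the gefitinib libraries of UMSCC25 in the fit, 0 passed, and both TRCN0000001495 and TRCN0000002318 had an adjusted p of 0.150. No shRNA passed without any one of the 3 DMSO replicates or without AZD8931 replicate 2, while 97 passed without AZD8931 replicate 1 and 12 without AZD8931 replicate 3, and DESeq2 called 82. The log2 fold change of TRCN0000001495 stayed between -1.50 and -1.18 over these left-out libraries and that of TRCN0000002318 between 1.28 and 1.61. Of the 18 called, 15 were higher and 3 lower, and 14 and 2 of these had the same sign in UMSCC8, where 48.9% of all tested shRNAs were below 0. In UMSCC8, 4 of the 15 were higher and 1 of the 3 lower at an unadjusted p under 0.05, against 3.05% and 4.11% of all. Without UMSCC8 DMSO replicate 1, again 16 had the same sign and 8 of the 18 had it with an unadjusted p under 0.05, where 4.63% of all were higher and 4.6% lower.

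In UMSCC1 the 4 shRNAs had log2 fold changes within 0.5 of 0, with -0.13 for TRCN0000001794, -0.05 for TRCN0000001495, -0.42 for TRCN0000002318 and 0.05 for TRCN0000006028, and standard errors of 0.42 to 0.78. The difference of the effect between UMSCC8 and UMSCC1 did not pass the interaction test for any of the 4 (adjusted p of 0.588 to 0.608 by edgeR's quasi-likelihood test), nor did that between UMSCC8 and UMSCC25 (0.670 to 0.956).

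Over all shRNAs tested in both lines, the log2 fold changes with AZD8931 in UMSCC8 and UMSCC25 had a Pearson correlation of 0.20 (Spearman 0.21, n = 3065 shRNAs), and of 0.22 without UMSCC8 DMSO replicate 1. Within 5 ranges of abundance the correlation was 0.14 to 0.29 with all 6 libraries. UMSCC8 and UMSCC1 had a correlation of -0.04 (Spearman -0.05, n = 3031), and of -0.06 without that library. Within the same ranges of abundance the UMSCC1 values were -0.13 to 0.08, and -0.17 to 0.06 without that library. These are correlations across shRNAs, which share the plasmid pool and its abundance ranges and are not independent replicates. The values for UMSCC1 are small, and no direction is read from them.

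The shRNAs at an unadjusted p under 0.05 in UMSCC8 were then looked up in the other lines. In UMSCC25, 5.85% of all shRNAs were lower and 7.93% higher at an unadjusted p under 0.05. Of the 124 shRNAs lower in UMSCC8 and tested in UMSCC25, 14 (11.3%) were also lower there, and of the 93 higher, 23 (24.7%) were also higher. In UMSCC1, 3.78% of all shRNAs were lower and 3.65% higher. Of the 124 lower in UMSCC8, 3 (2.42%) were also lower in UMSCC1, and of the 95 higher, 0 were also higher. Without UMSCC8 DMSO replicate 1 the shares in UMSCC25 were 11.4% of 140 lower and 24.1% of 141 higher, and in UMSCC1 4.29% of 140 lower and 1.41% of 142 higher. Abundant shRNAs have smaller errors in every line and more often a small p, and the part of abundance in these shares was not tested. By sign alone, 69.4% of the 124 lower and 65.6% of the 93 higher had the same sign in UMSCC25. Of all shRNAs there, 49.7% were below 0 and 50.3% above. In UMSCC1 the same-sign shares were 46.8% of the 124 lower and 42.1% of the 95 higher. Of all there, 51.3% were below 0 and 48.7% above. Without UMSCC8 DMSO replicate 1 the same-sign shares were 73.6% and 71.6% in UMSCC25 and 56.4% and 38.0% in UMSCC1. In the interaction test, 0 of 3125 shRNAs differed between UMSCC8 and UMSCC25 at an adjusted p under 0.05, with 202 at an unadjusted p under 0.05, and 0 of 3127 between UMSCC8 and UMSCC1, with 252. DESeq2 called 2 and 3 shRNAs in these tests and limma-voom called 0 in both, as did the edgeR test without UMSCC8 DMSO replicate 1.

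**Figure D4:**
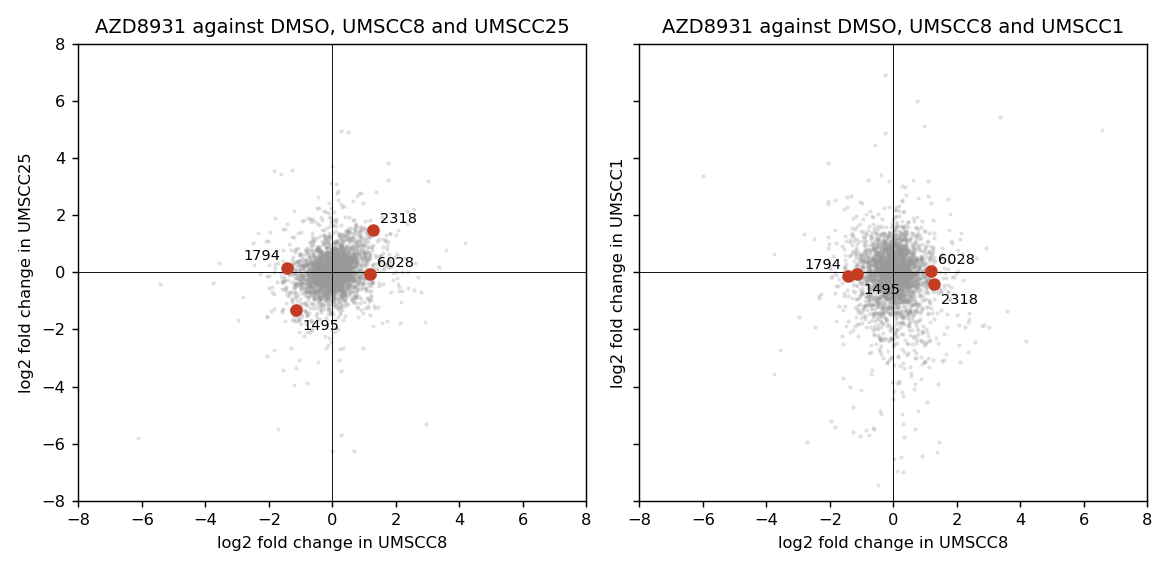
Each grey point is 1 shRNA, with its log2 fold change with AZD8931 in UMSCC8 on the x axis and in UMSCC25 (left) or UMSCC1 (right) on the y axis, and the 4 shRNAs named by identifier are in red with the last digits of their identifier. TRCN0000001495 is lower and TRCN0000002318 higher in both UMSCC8 and UMSCC25, and all 4 lie within 0.5 of 0 in UMSCC1.

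TGFBR1 and TGFBR2 are the only genes whose shRNAs could be named. TGFBR2 is the type II TGF-β receptor, a serine/threonine kinase that binds the ligand and then phosphorylates the type I receptor encoded by TGFBR1, which signals to SMAD proteins. GENCODE release 29 places TGFBR1 at bases 99104038 to 99154192 of chromosome 9 and TGFBR2 at bases 30606502 to 30694142 of chromosome 3 (GRCh38), both on the plus strand. The paper lists the 6 shRNAs for other comparisons of this screen, and both TGFBR2 shRNAs for gefitinib in UMSCC8, which used the same DMSO plates, so that they were in part chosen on these controls. How many other shRNAs of either gene are in the library is not known here. None of the 6 passed the test with AZD8931 in UMSCC8, with adjusted p-values of 0.777 to 0.981 by edgeR's quasi-likelihood test, and of 0.576 to 0.861 without DMSO replicate 1.

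TRCN0000040011, an shRNA of TGFBR2, had 47, 48 and 97 counts with DMSO and 16, 50 and 44 with AZD8931. On the CPM scale these were 110, 114 and 188 with DMSO and 40.5, 103 and 88.0 with AZD8931, and the treatments did not overlap. All 3 AZD8931 libraries lay below all 3 DMSO libraries for 8.23% of the tested shRNAs. Without overlap, a two-sided exact permutation test with 3 plates a group always gives its lowest possible p of 0.1. It therefore adds nothing here. The log2 fold change was -0.83 (standard error 0.51, 95% interval -1.96 to 0.31) and -0.96 (95% interval -1.99 to 0.06) without DMSO replicate 1. With gefitinib, set against the same DMSO plates, it was -1.92 (standard error 0.66, adjusted p = 0.394, same edgeR test). The gefitinib counts were 19, 21 and 2, the last from the library with a total of only 178406. AZD8931 exceeded gefitinib by 1.07 on the log2 scale (95% interval -0.17 to 2.32, adjusted p = 0.733, same edgeR test). With AZD8931 in UMSCC25 the log2 fold change of this shRNA was -1.16 (standard error 0.48, adjusted p = 0.274, same edgeR test). In UMSCC1 it was -0.13 (standard error 0.83). The paper lists this shRNA for gefitinib in UMSCC8 and for AZD8931 in UMSCC25, so that neither value is independent of its choice. For gefitinib in UMSCC8 the paper reports TGFBR2 as an SL hit, with a p-value for the gene beside those of its shRNAs. The adjusted p given here is for a single shRNA among all tested, which is a different measure.

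The other TGFBR2 shRNA, TRCN0000040008, turned on DMSO replicate 1. It had 150, 36 and 32 counts with DMSO and 27, 76 and 32 with AZD8931. The treatments overlapped with all 6 libraries, and the log2 fold change went from -0.78 (standard error 0.67) to 0.39 (standard error 0.53) without that library. It was -1.31 without AZD8931 replicate 2, the highest AZD8931 library.

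Of the TGFBR1 shRNAs, TRCN0000039777 had 81, 49 and 103 counts with DMSO and 71, 24 and 43 with AZD8931, a log2 fold change of -0.69 (standard error 0.52) that was -0.60 without DMSO replicate 1. Leaving out AZD8931 replicate 1 gave -1.29, and leaving out replicate 2 gave -0.35. TRCN0000039775 had 101, 8 and 26 counts with DMSO and 47, 42 and 15 with AZD8931. The treatments overlapped, and its log2 fold change of -0.38 (standard error 0.85) turned to 1.14 (standard error 0.67) without DMSO replicate 1. TRCN0000039776 had 1, 33 and 38 counts with DMSO and 19, 12 and 31 with AZD8931. Here DMSO replicate 1 was the low library, and the log2 fold change went from -0.20 (standard error 0.99) to -0.76 (standard error 0.58) without it. TRCN0000039774 was scarce throughout, with 0, 5 and 5 counts with DMSO and 7, 4 and 23 with AZD8931, and its log2 fold change of 1.70 had a 95% interval of -1.20 to 4.60. It was 1.15 (standard error 1.03) without DMSO replicate 1. Leaving out each library in turn gave 0.82 at the lowest, when AZD8931 replicate 3 was dropped, and 2.21 at the highest, when DMSO replicate 2 was dropped.

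**Figure D5:**
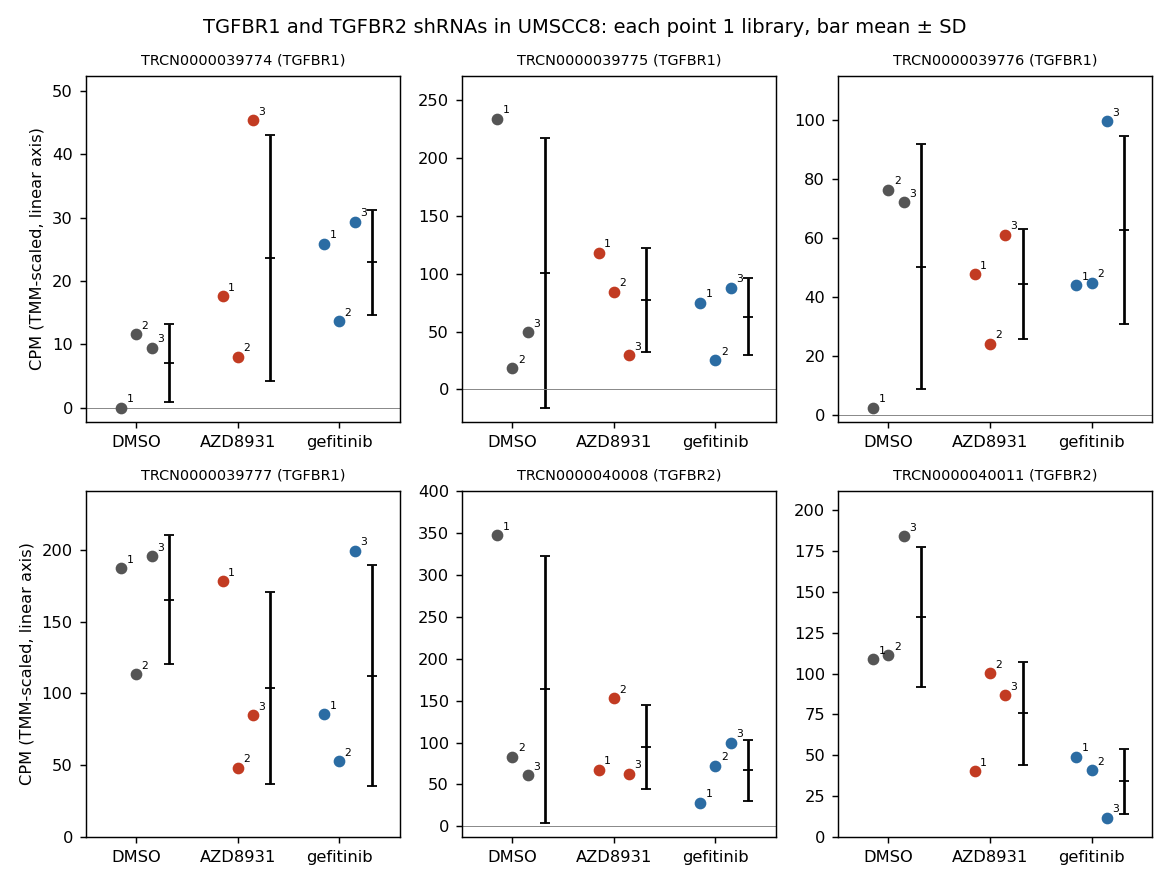
CPM of the 4 TGFBR1 and 2 TGFBR2 shRNAs in the DMSO (grey), AZD8931 (red) and gefitinib (blue) libraries of UMSCC8, scaled over the 9 libraries of the line, with the replicate number beside each point and the mean ± SD of the 3 plates as a bar, on linear axes that differ between panels. DMSO replicate 1 is the highest control for TRCN0000039775 and TRCN0000040008 and the lowest for TRCN0000039774 and TRCN0000039776, and the AZD8931 points lie below all DMSO points for TRCN0000040011.

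With all 6 libraries, 5 of these shRNAs had log2 fold changes below 0, and without DMSO replicate 1, 3 were below 0 and 3 above, where 48.9% and 49.6% of all tested shRNAs were below 0. For all 6 the interval included 0 in either case. An effect of AZD8931 on cells carrying these shRNAs was not detectable at this depth and with this spread between plates.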

How the data were processed

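The counts used here are the raw, unnormalized shRNA counts that the authors deposited, 1 value for each shRNA in each library. Tools named in the submitters' processing notes are edgeR and Bowtie 1.0.0, with hg19 as the build. The BiNG!S method is cited in the paper for the reads. Samples were grouped by line, agent and replicate in their titles. The counts of 3 AZD8931 and 3 DMSO libraries of UMSCC8 were compared in R 4.3.3 by edgeR 4.0.16 (TMM, glmQLFit with robust estimation, glmQLFTest), keeping shRNAs whose 6 counts summed to 10 or more, with Benjamini-Hochberg adjustment over all of them and a threshold of 0.05. CPM use TMM-scaled totals. Standard errors and 95% intervals derive from the quasi-likelihood F. Differences between lines were tested as interactions over 12 libraries. Alternatives used DESeq2 1.42.0 and limma 3.58.1. Reduced chi-squares of library pairs were 6.21 to 28.6, so that no library was a duplicate within sampling noise.

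Named shRNAs were those the paper pairs with TGFBR1 or TGFBR2, and the 2 lower and 2 higher with the smallest p among those whose groups did not overlap. Members, lists and tests were chosen with earlier results of these data known. Since the reads came from PCR without molecular identifiers, counting limits do not cover amplification.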

Additional observations from a re-analysis of the deposited data

How the results depend on the processing

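The count of 0 shRNAs at an adjusted p under 0.05 with AZD8931 in UMSCC8 was also 0 with RLE factors, library totals only, both other filters, the exact test, limma-voom, the 9-library fit and each library left out. It was 6 with DESeq2 and 4 with the exact test without DMSO replicate 1. The other tools without that library, and DESeq2 on 9 libraries, were chosen after seeing the data. At an unadjusted p, limma-voom gave 149 higher. Without DMSO replicate 1, limma-voom gave 193 lower and DESeq2 154 higher. Over the left-out libraries the unadjusted counts ran from 58 to 143 lower and from 50 to 144 higher, and the counts without overlap from 332 to 456 lower and from 343 to 464 higher. The interaction tests gave 2 (UMSCC25) and 3 (UMSCC1) with DESeq2, and AZD8931 against gefitinib 0 to 2 over the left-out libraries. The causes were not tested.

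The log2 fold change of TRCN0000039775 turned to 0.52 with limma-voom, 0.035 with the replicate block, 1.14 without DMSO replicate 1 and 0.03 without AZD8931 replicate 3 (-0.86 to 1.14 over left-out libraries). That of TRCN0000039776 turned to 0.29 with the block, 0.23 without DMSO replicate 2, 0.15 without DMSO replicate 3 and 0.10 without AZD8931 replicate 2 (-0.76 to 0.23), and that of TRCN0000040008 to 0.39 without DMSO replicate 1 (-1.31 to 0.39). DESeq2 brought 3 of the 4 other named shRNAs past the threshold. The deviations of same-numbered plates from their group means correlated at -0.04, -0.16 and -0.01, and those of plates with unlike numbers at -0.11 to 0.16. Deviations from a mean of 3 plates constrain each other. Whether same-numbered plates shared a batch therefore cannot be told from these values. With the replicate block, 92 were lower and 92 higher at an unadjusted p and 0 passed adjustment.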
